A study of Mus musculus with 20 samples.

Results

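The genes described here are 10 heat shock chaperones, Hspa1a, Hspa1b, Hspa8, Dnajb1, Hsph1, Hsp90aa1, Hsp90ab1, Hspb1, Hspd1, and Hspe1. They are the rows of the raw count matrix whose mouse symbol, matched from the Ensembl identifier, is one of these names. All 10 were found among the 15956 genes listed, and all 10 were among the 13991 genes with enough counts to be tested. The tissue sequenced was the left ventricle of 20 mice, 5 on each of 4 diets. The groups were a normal protein diet (NP), a low protein diet (LP), a high-fat diet (HF), and a high-fat diet with low protein (HF + LP), so that fat content can be compared at each protein content and protein content at each fat content. Every mouse is labelled as 18 months old, whereas the study's methods place tissue collection at a younger age, and they describe group-housed males from the Jackson Laboratory, of a strain not given in the sources used here. Within a diet each library carries its own animal number, and mice are named here by diet and this number, which recurs between diets. The label of LP mouse 5 adds that it is a second sample, and no other library of that animal was analysed here.

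Heat shock proteins are chaperones that bind unfolded or newly made proteins and help them reach or regain their shape. The HSP70 proteins work in a cycle in which an HSP40 partner delivers the client and a nucleotide exchange factor such as HSP110 releases it, and HSP90 then completes the folding of many kinases and receptors. When unfolded protein accumulates, heat shock factor 1 (HSF1) trimerizes and binds repeats of a short sequence unit in the promoters of these genes. In the heart, small heat shock proteins protect the contractile filaments, and the HSP60 and HSP10 pair folds proteins inside mitochondria.

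The binding unit of HSF1 is GAA or its complement TTC, and units alternate in direction with a gap of any 2 bases. A head-to-head pair reads GAANNTTC and a tail-to-tail pair reads TTCNNGAA, and each reads the same on the opposite strand. Promoter sequences of RefSeq for GRCm38, from 250 bases before to 50 bases after each start, were found for 7 of the 10 genes, and not for Hspa8, Hsp90aa1, and Hsp90ab1. The 7 genes had 10 windows, since some have more than 1 start, and at least 1 pair was present in 7 of these 10 windows, from 6 genes, and in 15.1% of all 32851 promoter windows. A head-to-head pair was in 7.86% of all windows, a tail-to-tail pair in 8.52%, 3 units in a row in 0.603%, and 4 units in a row in 0.0244%, or 8 windows, and pairs inside a longer run overlap. The stretches are shown because they are the matches found in the windows of these 6 genes, and the capitals mark the matched units with their gaps. Starts named with them are those of RefSeq. For Hsph1 these are 149636336 and 149636315, which lie inside the gene coordinates given further on.
Hspe1 and Hspd1, shared run of 4 units, chr1:55088056-55088079, plus strand: ccgTTCTAGAACCTTCCGGAAggc
Hsph1, 3 units after the start, chr5:149636283-149636305, minus strand: gcagaTTCTGGAAAGTTCtcctc
Hsph1, 2 units before the start, chr5:149636354-149636377, minus strand: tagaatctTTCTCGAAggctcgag
Hspb1, 2 units, chr5:135887794-135887817, plus strand: caacaagaGAAGTTTCcagatggg
Hspb1, 2 units, chr5:135887814-135887837, plus strand: tgggggcaGAACCTTCctggcccc
Hspa1a, 2 units, chr17:34972245-34972268, minus strand: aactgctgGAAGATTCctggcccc
Hspa1b, 2 units, chr17:34959327-34959350, minus strand: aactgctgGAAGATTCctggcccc

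Hspd1 and Hspe1 lie head to head on chromosome 1, Hspd1 on the minus strand from 55077835 to 55088243 and Hspe1 on the plus strand from 55088132 to 55091307. The run of 4 units starts 89 bases before the RefSeq start of Hspe1, 55088148, and it lies inside the Hspd1 coordinates given above. It is also counted for Hspd1, because the window of the Hspd1 start at 55087932 overlaps with that of Hspe1. The window of the other Hspd1 start, 55088243, held 0 pairs. The 250 bases before the starts of Hspa1a and Hspa1b differed at 3 positions, and the stretch shown is identical in the 2 copies. The 2 windows of Dnajb1 held 0 pairs, which says only that these letters are not in those windows.

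Libraries were prepared with QuantSeq, which reads the 3′ end of polyadenylated transcripts, and a long transcript therefore gains no extra counts. Values are counts scaled to library size, given to 4 significant digits and called normalized counts. Total counts per mouse ranged from 12559607 to 23331907, and transcripts encoded in mitochondrial DNA took 35.4% to 47.2% of them. LP mouse 13 stood apart, with a median correlation of 0.908 with the other LP mice, against 0.944 to 0.979 for the other 19 mice. Its summed normalized count of 4 atrial markers was 240300, the highest of the 20 mice, which ranged from 948.7 upward, and its sums of 4 adipocyte markers (4819) and 3 smooth muscle markers (4615) were also the highest. Cardiomyocyte markers were abundant in every library, with sums of 582300 to 934600 over 8 genes. Values without LP mouse 13 are given beside many of the results that it moved, but not beside all of them.

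The genes covered a wide range of levels in the ventricle. Hsp90ab1, the constitutive HSP90, had the highest mean normalized count over the 20 mice, 23170, which was 19.2 times that of Hsp90aa1, the inducible HSP90, at 1210. Hspa8, the constitutive HSP70, had 5222, which was 151 times that of Hspa1a (34.5) and 224 times that of Hspa1b (23.3), the inducible HSP70 genes. Between them lay Hspd1 (HSP60) with 1670, Hspe1 (HSP10) with 1578, Hspb1 (HSP27) with 1351, Hsph1 (HSP110) with 350.2, and Dnajb1 (HSP40) with 241.2. Hspd1, Hspe1, Hspb1, and Hsp90aa1 overlapped one another over the mice, and so did Hspa1a and Hspa1b, whereas every Hspa8 value lay above every value of the 4 genes below it and under every Hsp90ab1 value. Together the 10 genes took a median of 0.320% of the nuclear-encoded counts in NP mice, with 0.352% for LP, 0.363% for HF, and 0.374% for HF + LP.

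**Figure D1:**
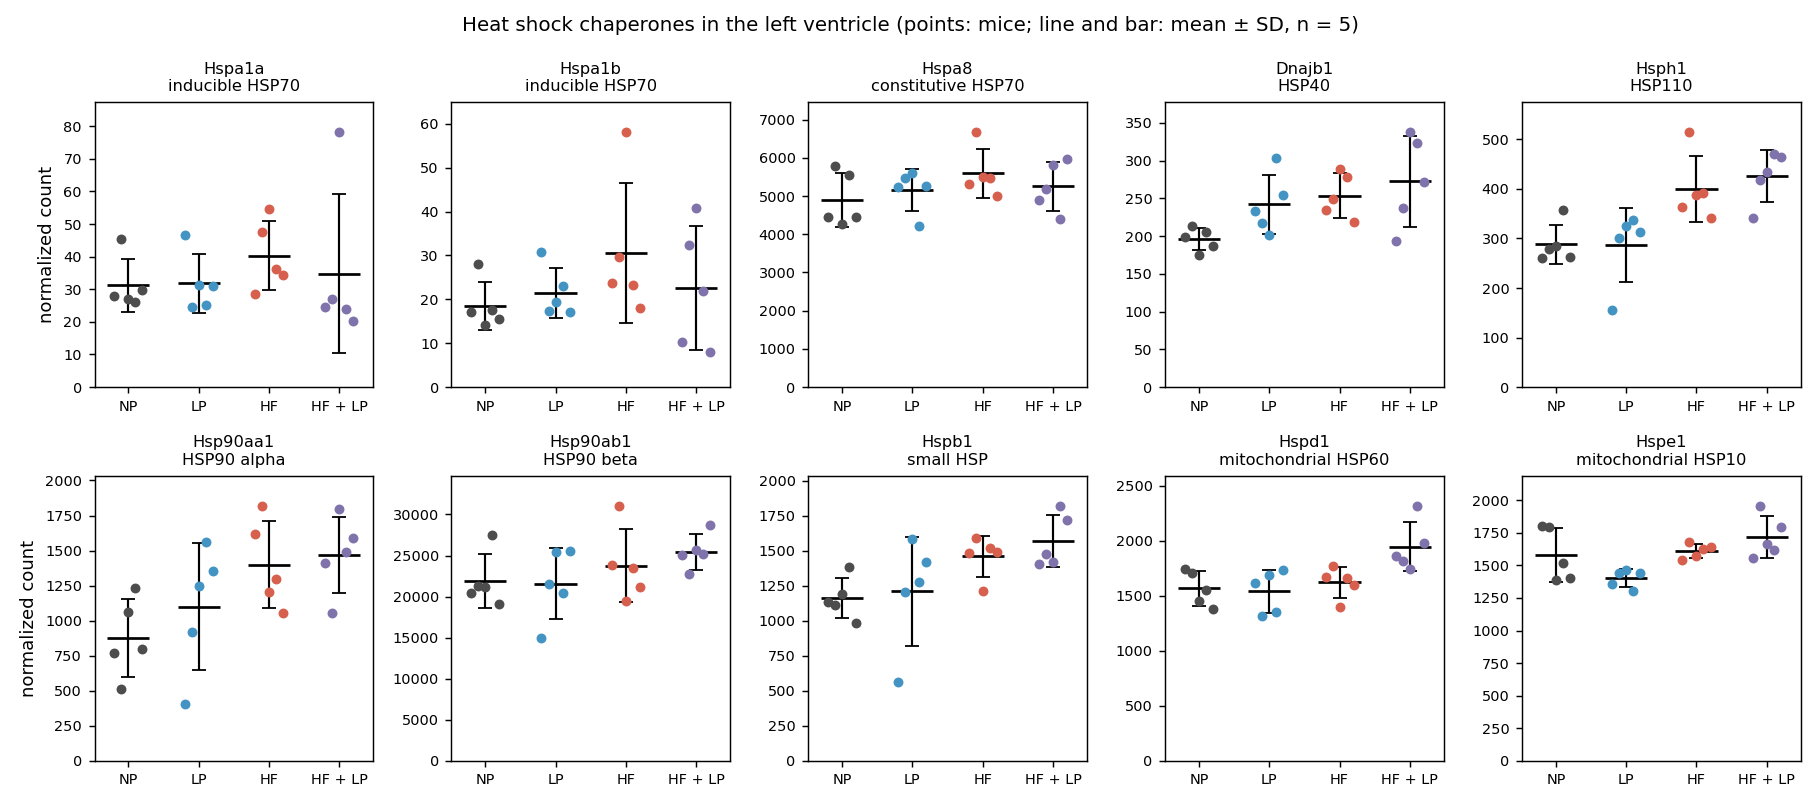
Normalized counts (y axes, from 0) of the 10 heat shock chaperones in each mouse, by diet group (x axes), with the mean and SD of 5 mice. Hsph1 lies between 341.2 and 514.1 in the 10 mice on high-fat diets and between 155 and 356.7 in the 10 others, and LP mouse 13 has the lowest Hsph1, Hspb1, Hsp90aa1, and Hsp90ab1.

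Differences between diets were tested with edgeR's quasi-likelihood test on all 20 mice, and the threshold for a call was an adjusted p (Benjamini-Hochberg, over all genes tested) under 0.01 with a mean normalized count over 50. Hspa1a and Hspa1b are under that count and could not be called. Of the 10 chaperones, 0 were called by edgeR in any of 7 comparisons. These were HF with NP (0.264% of all genes called), HF + LP with LP (0.1%), LP with NP (0.0%), HF + LP with HF (0.0%), the average effect of fat over both protein contents (0.993%), the average effect of protein over both fat contents (0.0%), and the interaction of fat and protein (0.0%). DESeq2 called 1 chaperone, Hsph1, for the average effect of fat, and 0 in the other 6 comparisons. At an unadjusted p under 0.05, 6 of 10 were higher for the average effect of fat, against 8.28% of all genes that were higher at this level. Lower were 0 of 10, against 12.6% of all genes. The 6 higher ones were Hsph1, Hsp90aa1, Hspb1, Dnajb1, Hspd1, and Hspe1, and all 10 had a positive log2 fold change, against 46.9% of all genes. The median log2 fold change was 0.26 over the 10 genes and −0.02 over all genes tested. Because fewer cells of a type and less RNA per cell cannot be told apart in whole tissue, each value describes the tissue and not a cell type.

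HSP110, encoded by Hsph1 on the minus strand of chromosome 5 from 149614287 to 149636376, is a nucleotide exchange factor of HSP70, and it had the smallest p for fat among the 10 genes. Its normalized counts were 260.4, 278.9, 284.6, 356.7, and 263.2 in NP mice 3, 4, 5, 6, and 8, and 325.2, 312.9, 155, 301.9, and 336.7 in LP mice 2, 5, 13, 15, and 20. They were 364.2, 514.1, 386.8, 392.3, and 342 in HF mice 1 to 5, and 341.2, 417.8, 434.2, 470.8, and 464.8 in HF + LP mice 1 to 5. Every HF + LP mouse lay above every LP mouse, and 4 of 5 HF mice lay above every NP mouse, of which mouse 6 was the highest. On the log2 scale the average effect of fat was 0.52 (standard error 0.12, adjusted p = 0.0171 from edgeR), rank 267 by p among all genes tested. At an adjusted p under 0.05, Hsph1 was the 1 chaperone that was higher with fat, as were 1.23% of all genes. Without LP mouse 13 the log2 fold change was 0.44 with an adjusted p of 0.00609 from edgeR, which passed the call. With the summed atrial markers as a covariate, chosen after the values had been seen, it was 0.49 (adjusted p = 0.0273 from edgeR).

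The log2 fold change of Hsph1 with fat was 0.47 (standard error 0.17, adjusted p = 0.212 from edgeR) between HF and NP, and 0.58 (standard error 0.17, adjusted p = 0.126) between HF + LP and LP, 2 comparisons that share no mice. The second was 0.41 without LP mouse 13 (adjusted p = 0.175 from edgeR). The interaction, which is the second difference minus the first, was 0.11 with a standard error of 0.24, and −0.06 without LP mouse 13. Protein content moved Hsph1 by −0.02 (standard error 0.17) between LP and NP, or 0.14 without LP mouse 13, and by 0.09 (standard error 0.17) between HF + LP and HF.

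HSP40, encoded by Dnajb1 on chromosome 8 from 83608193 to 83612653, delivers clients to HSP70. Its normalized counts were 199.1, 213.5, 175.6, 206.1, and 186.9 in NP mice 3, 4, 5, 6, and 8, and 234.9, 248.7, 288.6, 278.7, and 218.2 in HF mice 1 to 5. All 5 HF values exceeded all 5 NP values, as was so for 2.07% of all genes, and Dnajb1 was the 1 chaperone of 10 without overlap in this comparison. The log2 fold change was 0.37 (standard error 0.14, adjusted p = 0.242 from edgeR). The LP mice had 201.6, 254.7, 233.1, 218.1, and 303.1 in mice 2, 5, 13, 15, and 20, of which 4 lay above every NP mouse, and the log2 fold change of LP against NP was 0.31 (standard error 0.14, adjusted p = 0.681 from edgeR). Without overlap between LP and NP there were 0 chaperones, against 0.443% of all genes. In HF + LP, Dnajb1 ranged from 193.5 to 337.5 and overlapped with LP (log2 fold change 0.17, standard error 0.14). NP was the group with the lowest and the most even Dnajb1, 196.2 ± 15.1, against 253.8 ± 29.5 in HF, 242.1 ± 39.3 in LP, and 272.5 ± 59.7 in HF + LP (mean ± SD, n = 5).

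The inducible HSP70 genes Hspa1a and Hspa1b are the classical response to acute heat shock, and both had low counts here, from 20 to 84 reads per library for Hspa1a and from 8 to 68 for Hspa1b. Hspa1a, on chromosome 17 from 34969190 to 34972156, had 27.98, 45.51, 26.92, 26.08, and 29.85 in NP, 31.22, 31.09, 46.74, 24.65, and 25.25 in LP, 28.59, 47.67, 54.64, 36.13, and 34.5 in HF, and 24.44, 27.16, 78.1, 24.09, and 20.16 in HF + LP, with mice in order of animal number. Single mice, NP mouse 4, LP mouse 13, and HF + LP mouse 3, stood above the rest of their groups, and all 4 groups overlapped. Hspa1b, the neighbouring copy from 34956436 to 34959238, was also highest in these 3 mice within their groups, and in HF it was highest in mouse 3, with 58.06. The average effect of fat was 0.25 (standard error 0.23, adjusted p = 0.583 from edgeR) for Hspa1a and 0.39 (standard error 0.28, adjusted p = 0.453) for Hspa1b. Without HF + LP mouse 3 the value of Hspa1a was 0.00, and without HF mouse 3 that of Hspa1b was 0.20. With the counts of the 2 copies summed, chosen after their levels had been seen, it was 0.31 (standard error 0.23, adjusted p = 0.476 from edgeR). Of all windows of 75 bases, the read length, in the last 500 bases of either annotated transcript, 0% occur in the other copy, whereas 52.7% of those over the whole Hspa1a transcript do.

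The constitutive HSP70, Hspa8, folds proteins in unstressed cells, and it is encoded on chromosome 9 from 40800984 to 40810087. It ranged from 4263 to 5779 in NP, 4988 to 6664 in HF, 4215 to 5589 in LP, and 4401 to 5972 in HF + LP, with overlap between all groups. The average effect of fat was 0.11 (standard error 0.08, adjusted p = 0.479 from edgeR). Its values in NP fell into a lower set of 4438, 4263, and 4439 and a higher one of 5779 and 5546.

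The HSP90 genes differed in both level and spread. Hsp90aa1, on chromosome 12 from 110690605 to 110702728, had 771.5, 512.2, 1064, 1231, and 796.1 in NP mice 3, 4, 5, 6, and 8, and 1250, 1353, 402.2, 920.6, and 1564 in LP mice 2, 5, 13, 15, and 20. It had 1620, 1817, 1206, 1297, and 1055 in HF mice 1 to 5, and 1408, 1056, 1800, 1490, and 1587 in HF + LP mice 1 to 5. All 10 mice on high-fat diets lay above the median of the 10 others, and 4 of them lay above all others. The log2 fold change was 0.68 between HF and NP (standard error 0.28, adjusted p = 0.279 from edgeR), 0.42 between HF + LP and LP (standard error 0.28, adjusted p = 0.467), and 0.55 for the average effect of fat (standard error 0.20, adjusted p = 0.113). Without LP mouse 13, the lowest of all, these last values were 0.20 (adjusted p = 0.801) and 0.44 (adjusted p = 0.108 from edgeR). Hsp90ab1, on chromosome 17 from 45567775 to 45573271, had an average effect of 0.18 (standard error 0.10, adjusted p = 0.336), or 0.12 without LP mouse 13. Its groups ranged from 19040 to 27460 in NP, 19430 to 31010 in HF, 14900 to 25500 in LP, and 22690 to 28760 in HF + LP.

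Hspb1, which encodes HSP27, a small heat shock protein that binds actin and intermediate filaments, lies on chromosome 5 from 135887919 to 135889563. It had 1137, 1113, 1195, 1382, and 988.5 in NP mice 3, 4, 5, 6, and 8, and 1582, 1424, 563.9, 1208, and 1275 in LP mice 2, 5, 13, 15, and 20. In HF it had 1484, 1591, 1213, 1522, and 1492, and in HF + LP 1408, 1477, 1424, 1820, and 1718, in mice 1 to 5. Of the HF mice, 4 of 5 lay above every NP mouse, and LP mouse 13 lay far below every other mouse. The average effect of fat was 0.35 (standard error 0.13, adjusted p = 0.124 from edgeR), and 0.26 without LP mouse 13 (adjusted p = 0.0737).

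The mitochondrial chaperonin, HSP60 with its lid HSP10, was higher in HF + LP than in LP without overlap between the groups. Hspd1 had 1686, 1732, 1615, 1317, and 1350 in LP mice 2, 5, 13, 15, and 20, and 1866, 1819, 1747, 2316, and 1984 in HF + LP mice 1 to 5. Hspe1 had 1466, 1440, 1358, 1443, and 1304 in the same LP mice, and 1557, 1954, 1663, 1618, and 1793 in the same HF + LP mice. Pseudogenes of both genes are annotated, and how reads they share were assigned is not given in the sources used here, so their levels are uncertain to that extent. For both genes every HF + LP mouse lay above every LP mouse, which together with Hsph1 made 3 chaperones of 10 without overlap in this comparison, against 0.915% of all genes. The log2 fold changes were 0.34 for Hspd1 (standard error 0.11, adjusted p = 0.138 from edgeR) and 0.29 for Hspe1 (standard error 0.09, adjusted p = 0.134).

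At normal protein the same genes overlapped between HF and NP. Hspd1 ranged from 1396 to 1775 in HF and from 1382 to 1748 in NP (log2 fold change 0.05, standard error 0.11), and Hspe1 from 1544 to 1676 in HF and from 1387 to 1798 in NP (log2 fold change 0.03, standard error 0.09). The interaction of fat and protein was 0.29 for Hspd1 (standard error 0.15) and 0.26 for Hspe1 (standard error 0.13), with adjusted p of 0.721 and 0.697 from edgeR, so a difference between the 2 protein contents was not shown. For Hspd1, 4 of 5 HF + LP mice also lay above every HF mouse, with a difference of 0.26 on the log2 scale (standard error 0.11, adjusted p = 0.819 from edgeR). The lowest HF + LP value, 1747, lay under the highest HF value, 1775, and for Hspe1 the 2 groups overlapped (0.09, standard error 0.09). Hspe1 was −0.17 in LP against NP (standard error 0.09, adjusted p = 0.726 from edgeR).

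**Figure D2:**
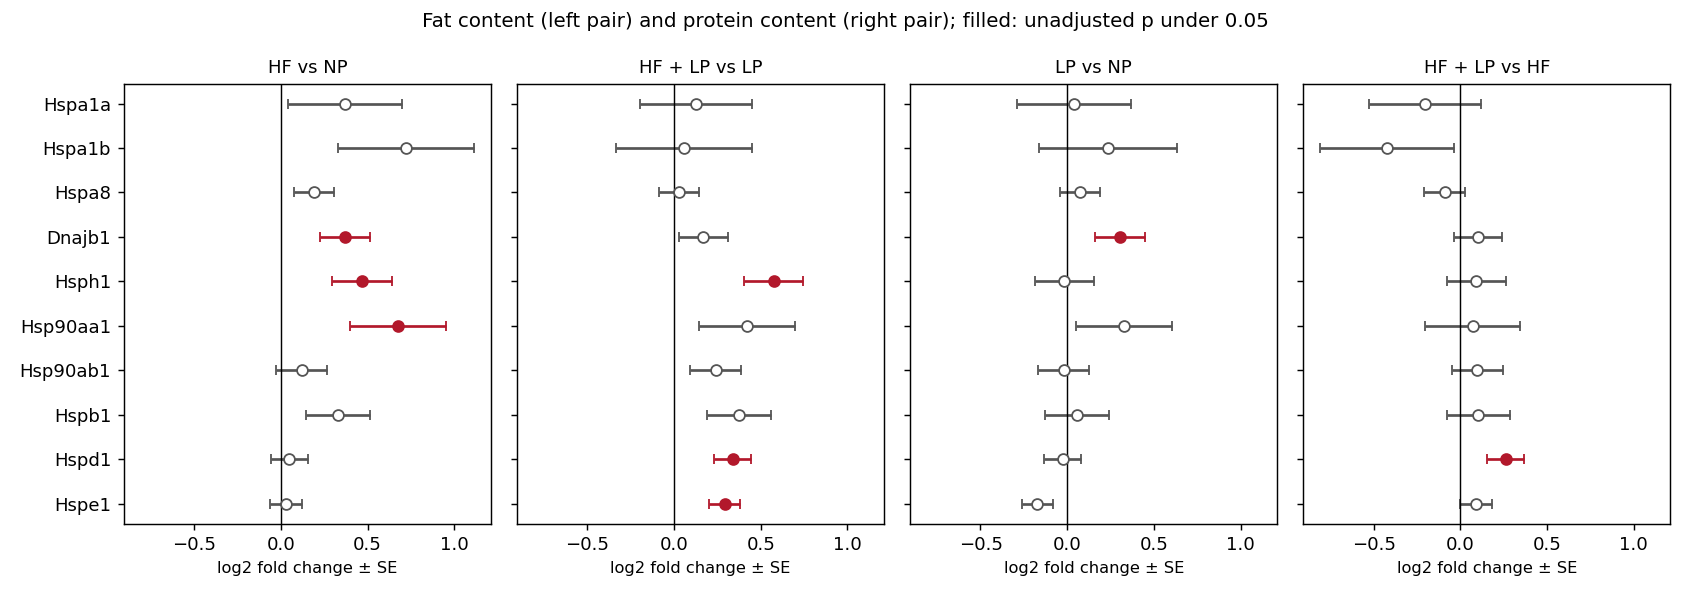
Log2 fold changes (x axes) of the 10 heat shock chaperones with their standard errors in 4 comparisons of diets, from edgeR on 20 mice, with filled points at an unadjusted p under 0.05. All 10 points lie above 0 in HF against NP and in HF + LP against LP, whereas 6 lie above 0 in LP against NP and 7 in HF + LP against HF.

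Counted by comparison, 3 of 10 chaperones were higher in HF than in NP at an unadjusted p under 0.05 (Dnajb1, Hsp90aa1, and Hsph1), against 5.17% of all genes, and 3 of 10 were higher in HF + LP than in LP (Hspd1, Hsph1, and Hspe1), against 6.26%. For protein content, 1 of 10 was higher in LP than in NP (Dnajb1), against 5.02% of all genes, and 1 of 10 in HF + LP than in HF (Hspd1), against 2.41%. Without LP mouse 13 there were 4 in HF against NP, with Hspb1 added, and 2 in LP against NP, with Hsp90aa1 added. In these 4 comparisons 0 chaperones were lower at this level. Of all genes, 7.91% were lower in HF against NP, 9.66% in HF + LP against LP, 2.21% in LP against NP, and 2.43% in HF + LP against HF. The comparisons of protein content share the NP or HF mice with those of fat content and are not independent of them. For the average effect of protein 0 of 10 were past an unadjusted p of 0.05 in either direction, against 5.47% of all genes, and for the interaction 0 of 10, against 7.17%. The median log2 fold changes of the 10 genes were 0.35 in HF against NP and 0.27 in HF + LP against LP (0.21 without LP mouse 13). They were 0.05 in LP against NP (0.08 without LP mouse 13) and 0.09 in HF + LP against HF. The medians of all genes tested were 0.00, −0.03, 0.02, and 0.02 in the same order.

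Mice on the same diet differed from each other to a different degree for each chaperone. The within-group SD of log2 CPM, the count relative to library size on a log scale, was 0.12 for Hspe1, which was larger than in 2.41% of the 10099 genes with a mean normalized count over 50, and 0.16 for Hspd1 (11.3%). It was 0.18 for Hspa8, 0.22 for Dnajb1, and 0.23 for Hsp90ab1, against a median of 0.25 over those genes. Hsp90aa1 had 0.51, which was larger than in 90.3% of the genes, and 0.36 without LP mouse 13, which was larger than in 81.4%. Hspb1 and Hsph1 had 0.33 and 0.29 with LP mouse 13 but 0.17 and 0.18 without it.

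Within diets, the 4 highest correlations between chaperones over 20 mice were among Hsp90aa1, Hsp90ab1, Hsph1, and Hspb1. Pearson's r of their deviations from the group means over 20 mice, which share library and depth, was 0.87 for Hsph1 with Hspb1, 0.82 for Hsp90ab1 with Hspb1, 0.81 for Hsp90ab1 with Hsph1, and 0.81 for Hsp90aa1 with Hsph1. Without LP mouse 13 these were 0.58, 0.74, 0.69, and 0.56, and other pairs were as high, with 0.73 for Hspb1 with Hspd1 (0.24 over 20 mice) and 0.64 for Hspa8 with Hsp90ab1 (0.48). Without that library the 4 genes did not stand apart. Hspa1a and Hspa1b, neighbouring copies, had 0.75 with LP mouse 13 and 0.74 without it, and with Hspb1 they had −0.44 and −0.36. Hspd1 and Hspe1, which share a promoter region, had 0.39, and 0.41 without LP mouse 13.

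**Figure D3:**
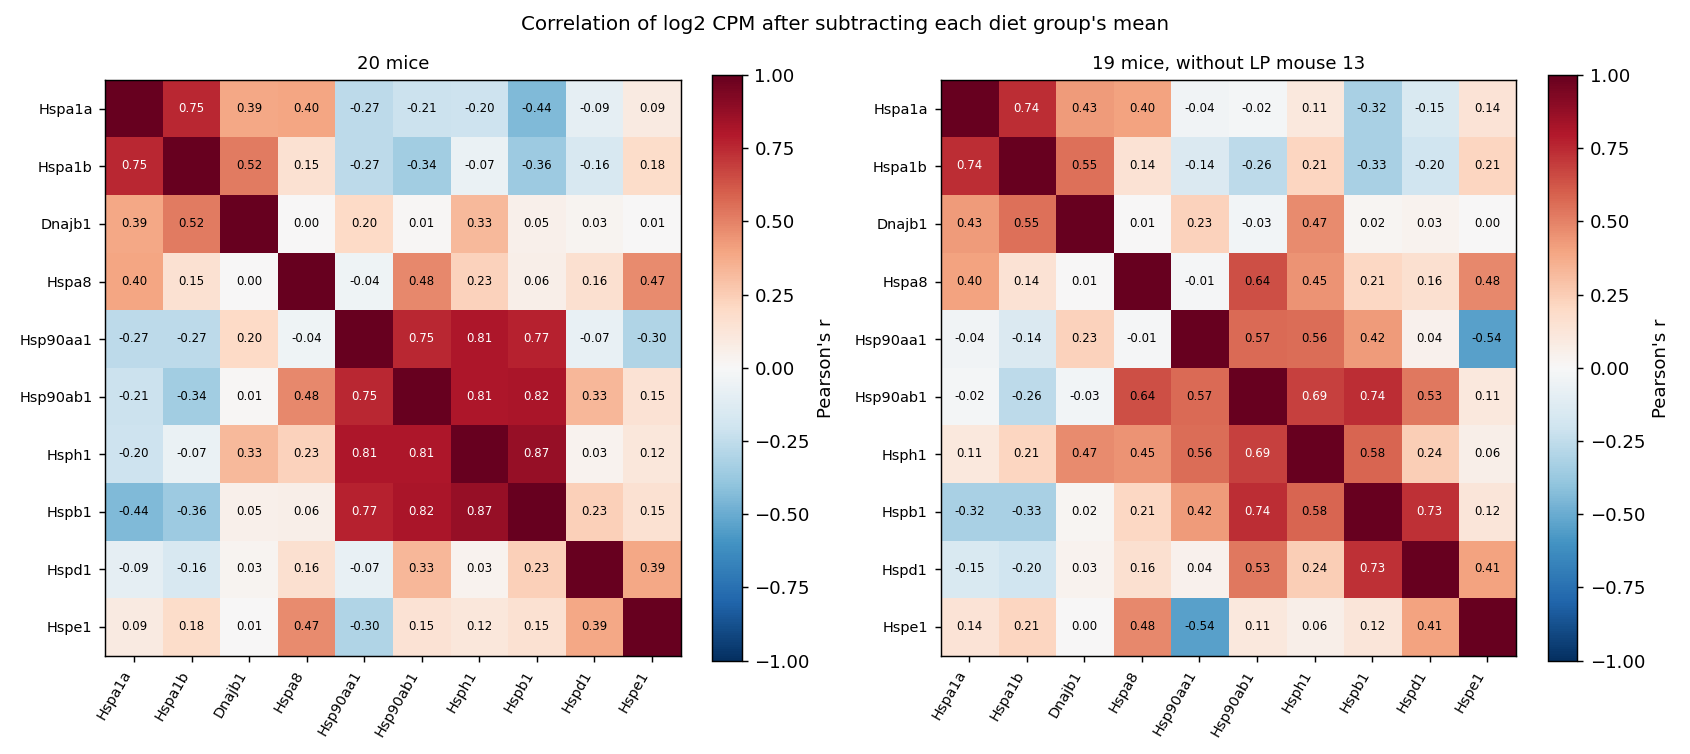
Pearson's r between the 10 heat shock chaperones over 20 mice (left) and without LP mouse 13 (right), computed on log2 CPM after each diet group's mean was subtracted, with color from −1 to 1. The pairs of Hsp90aa1, Hsp90ab1, Hsph1, and Hspb1 lie between 0.75 and 0.87 on the left and between 0.42 and 0.74 on the right.

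The 5 genes outside the list whose deviations were most like those of Hsph1, of 10091 compared, were Gpatch2 (r = 0.90), Aup1 (0.89), Prpf3 (0.89), Yeats4 (0.87), and Jmjd6 (0.87). Without LP mouse 13 their r was 0.82, 0.69, 0.75, 0.73, and 0.70, and none of the 5 remained among the 5 most like Hsph1, with ranks of 6 to 42. Among those most like Hspd1 were Lpcat3 (0.83), Prdx1 (0.82), Spg7 (0.79), and Fundc2 (0.78), and without LP mouse 13 these were 0.85, 0.82, 0.79, and 0.85. Spg7 encodes a protease of the mitochondrial inner membrane, and Prdx1 a peroxidase.

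Other genes of protein folding were described from 8 lists, which cover heat shock factors and their regulators, other HSP70 and HSP110 proteins, other J-domain proteins, nucleotide exchange factors, HSP90 cochaperones, other small heat shock proteins, mitochondrial chaperones and proteases, and the cytosolic chaperonin CCT. Of the 63 genes tested, 0 were called by edgeR for the average effect of fat, 12 were higher, against 8.28% of all genes, and 2 lower, against 12.6%, at an unadjusted p under 0.05. The median log2 fold change was 0.08, against −0.02 over all genes tested. Leaving out LP mouse 13 gave 9 higher and 3 lower, with a median of 0.06. In HF against NP, 2 were higher and 2 lower, against 5.17% and 7.91% of all genes, with a median of 0.01. In HF + LP against LP, 11 were higher and 2 lower, against 6.26% and 9.66%, with a median of 0.13, or 5 and 1 without LP mouse 13. In LP against NP, 0 were higher and 4 lower, against 5.02% and 2.21%, with a median of −0.07, or 0 and 2 without LP mouse 13. Of these 4, 3 were among the 6 other small heat shock proteins, whose median was −0.35 in LP against NP, and 1 of them (Hspb3) was lower without LP mouse 13, with a median of −0.28. In HF + LP against HF, 0 were past this level in either direction, against 2.41% of all genes higher and 2.43% lower. Dnaja1, a J-domain partner of HSP70, had an average effect of 0.38 (standard error 0.09, adjusted p = 0.0233 from edgeR). DESeq2 called Dnaja1 (adjusted p = 0.00254). As means of 5 mice, its level was 342.1 with NP, 378.6 with LP, 463.2 with HF, and 472.9 with HF + LP.

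The lists were read singly for the average effect of fat, for which 8.28% of all genes were higher, 12.6% lower, and 46.9% positive. Of 11 other J-domain proteins, 3 were higher and 1 was lower at an unadjusted p under 0.05, or 2 and 1 without LP mouse 13, where Dnajc5 was not past it. Beside Dnaja1, Dnajc5 had 0.20 (adjusted p = 0.222), Dnajc7, which also binds HSP90, had −0.42 (adjusted p = 0.0545), and Dnaja4, named after its value was seen, had 0.18 (adjusted p = 0.234). Of 9 nucleotide exchange factors, Bag1 had 0.19 and Bag5 0.18, neither of which was past an unadjusted p of 0.05 without LP mouse 13, where Bag6 joined the lower genes, and Hspbp1 had −0.46 (adjusted p = 0.151). Of 12 HSP90 cochaperones, 3 were higher, which were Sugt1 with 0.26 (adjusted p = 0.118), Chordc1 with 0.30 (adjusted p = 0.142), and Ptges3, named after its value was seen, with 0.25 (adjusted p = 0.170), of which Ptges3 was not past this level without LP mouse 13. Hspa4, another HSP110 protein, had 0.13 (adjusted p = 0.232) and was not past this level without LP mouse 13, and Hspb2, a small heat shock protein of muscle, had 0.28 (adjusted p = 0.118). Of 8 CCT subunits, 7 were positive, with Cct2 at 0.20 (adjusted p = 0.0741) and Tcp1 at 0.21 (adjusted p = 0.101). These 2 were past this level, and 4 CCT subunits were without LP mouse 13. Of 4 heat shock factors and regulators and of 10 mitochondrial chaperones and proteases, 0 were past an unadjusted p of 0.05 for the average effect of fat.

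Cirbp and Rbm3 encode RNA-binding proteins that are induced by mild cold, the opposite of the trigger of the heat shock genes, and both had negative average effects of fat. Cirbp had means of 760.3 (NP), 772.5 (LP), 512.1 (HF), and 510.2 (HF + LP), with a log2 difference of −0.59 (standard error 0.18, adjusted p = 0.0621 from edgeR). LP mouse 13 was the highest, with 1407, and without it the value was −0.42 (adjusted p = 0.0840). Rbm3 had 43.2, 43.7, 31.7, and 26.8 in the same groups, with a log2 difference of −0.59 (standard error 0.17, adjusted p = 0.0479 from edgeR), but its mean over 20 mice was under the minimum for a call. The HF mice overlapped with NP for both genes, and HF mouse 1, with 684.9 for Cirbp and 52.21 for Rbm3, was the highest of its group.

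**Figure D4:**
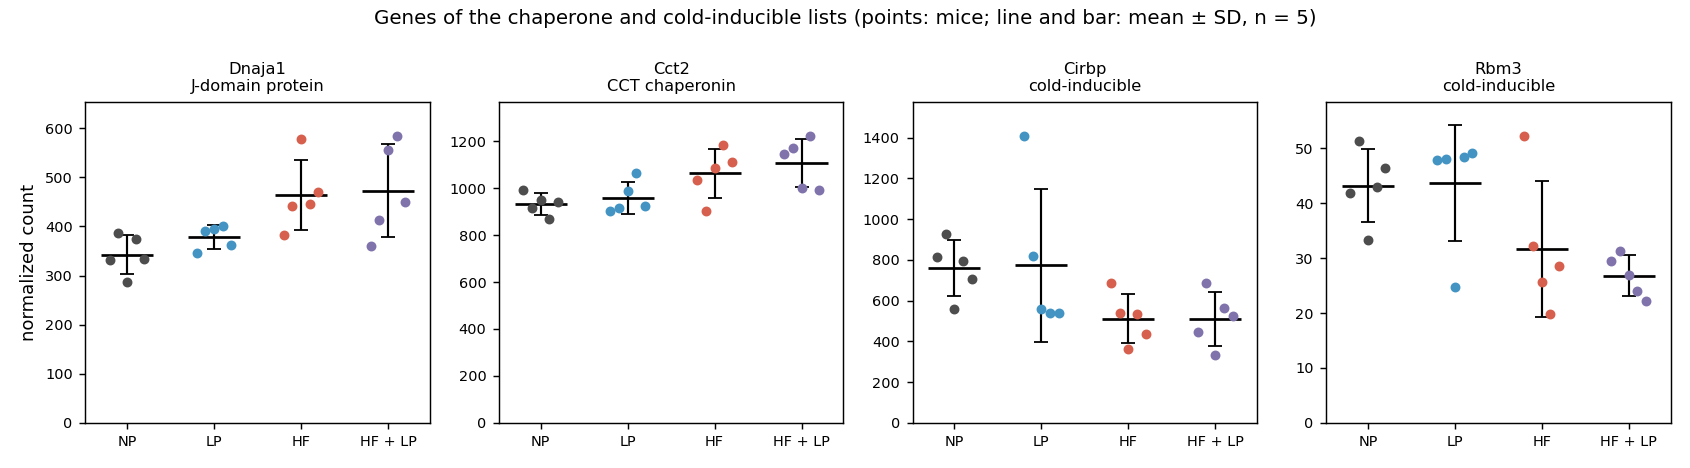
Normalized counts (y axes, from 0) of Dnaja1, Cct2, Cirbp, and Rbm3 in each mouse, by diet group (x axes), with the mean and SD of 5 mice. Dnaja1 is at 360.5 or more in the 10 mice on high-fat diets and at 401.3 or less in the 10 others, and Cirbp in LP mouse 13 is at 1407.

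Among genes of acute stress and handling, 2 of 15 immediate early genes were higher with fat at an unadjusted p under 0.05, against 8.28% of all genes. Atf3 had 0.76 (standard error 0.21, adjusted p = 0.0392 from edgeR) at a mean of 36.7, and Klf2, named after its value was seen, had 0.14 (adjusted p = 0.240) and was not past it without LP mouse 13. In HF against NP, 3 of 15 were higher, against 5.17% of all genes, and 13 had a positive log2 fold change, against 49.8% (median 0.26). In HF + LP against HF, 2 were lower, against 2.43% of all genes, and 2 were positive, against 53.7% (median −0.24), and 3 had a negative interaction at this level, against 4.31%. The last 2 counts of lower genes were 3 and 2 without LP mouse 13. Of 5 glucocorticoid-responsive genes, Sgk1 had 0.35 (adjusted p = 0.111) and Per1, which is also a clock gene, had −0.99 (adjusted p = 0.0877), or −0.74 without LP mouse 13. Their part in the differences of the chaperones was not tested.

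Markers of cell types were read against the 8.28% of all genes that were higher and the 12.6% that were lower for the average effect of fat. Myh6, the adult cardiac myosin, fell by 0.55 on the log2 scale (adjusted p = 0.00252 from edgeR), and of 8 cardiomyocyte markers 2 were lower and 0 higher at an unadjusted p under 0.05. Myh11, of smooth muscle, fell by 1.54 (adjusted p = 0.000572 from edgeR), and its log2 fold change was −1.26 without LP mouse 13. Summed smooth muscle markers ranged from 1154 to 2540 in NP, 829 to 969.7 in HF, 1010 to 4615 in LP, and 981.7 to 2515 in HF + LP. Of 4 adipocyte markers, 4 were lower at an unadjusted p under 0.05, but 1 of 4 (Cfd) without LP mouse 13, with sums of 20.5 to 697.3 in NP, 8.6 to 1095 in HF, 69.2 to 4819 in LP, and 12 to 179.4 in HF + LP. Of 5 myeloid markers, 2 were higher (Cd68 and Lyz2), or 3 without LP mouse 13, with sums of 3028 to 3685 in NP, 4120 to 5021 in HF, 2476 to 5027 in LP, and 2993 to 4160 in HF + LP. Among 5 fibroblast, 5 endothelial, and 5 erythroid markers 1 each was higher and 0 were lower at this level, and Col3a1 of fibroblasts had 0.57 (adjusted p = 0.0172 from edgeR). These counts were 2, 1, and 0 without LP mouse 13. For 4 atrial markers 0 were past this level, with sums that varied within every group, up to 59060 in NP, 199900 in HF, 240300 in LP, and 85180 in HF + LP. With the atrial sum as a covariate the same 6 chaperones were higher at an unadjusted p under 0.05, and the part of the other cell types in the differences was not tested.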

How the data were processed

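RNA was taken from frozen left ventricle, and libraries were made with a 3′ mRNA kit. The authors read 75 bases per fragment (NextSeq 500) and used BlueBee software for alignment, and the deposited values are raw counts per Ensembl gene without normalization. The submitters' processing notes name GRCm38 and DESeq2 1.22.2. The annotation, counting program, and strand setting are not given in the sources used here. Symbols and coordinates come from GENCODE M21 by Ensembl identifier, for 15917 of 15956 genes.

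Counts were filtered with filterByExpr by diet group, scaled by TMM, and fitted for all 20 mice with edgeR 4.0.16 in R 4.3.3 (glmQLFit, glmQLFTest), with Benjamini-Hochberg adjustment over 13991 genes. Standard errors came from the F statistic. Correlations and spread used log2 CPM with a prior count of 2. The fit was tested on simulated data. Alternatives were RLE size factors, no mitochondrial genes, other count filters, DESeq2 1.42.0, other thresholds, a covariate from the library name's number, the replicate block, only the groups compared, and each mouse left out. Summed Hspa1 copies and the atrial covariate were added after seeing the data. Genes named are the 10 chaperones, the 5 most like Hsph1 and Hspd1, and from each list the called genes or else up to 3 with the smallest unadjusted p under 0.05, with exceptions stated, and 1 gene most like Hspd1 is not reported here. The genes and lists were chosen with earlier results of these data known. Each library is 1 animal by its label, and p-values measure the spread between these mice.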

Additional observations from a re-analysis of the deposited data

Results flagged for a closer look

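Single mice were checked in each of 40 gene and diet combinations for a highest or lowest normalized count whose gap to the next mouse was over 0.71 of the group's range, which chance gives in about 1 in 20 groups. Of these, 8 were past it. For Hspa1a these were NP mouse 4, with 45.5 against 26.1 to 29.9 in the other NP mice, and HF + LP mouse 3, with 78.1 against 20.2 to 27.2. For Hspa1b it was NP mouse 4, with 28.0 against 14.1 to 17.7, so that both inducible HSP70 genes were high in the same NP mouse. NP mouse 6 was high for Hsph1, with 357 against 260 to 285, and for Hsp90ab1, with 27460 against 19040 to 21330. LP mouse 13 was low for Hsph1, with 155 against 302 to 337 in the other LP mice. LP mouse 20 was low for Hspa8, with 4215 against 5233 to 5589, and HF mouse 3 was low for Hspb1, with 1213 against 1484 to 1591.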

How the results depend on the processing

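The number of chaperones called for the average effect of fat was 0, and it became 1, Hsph1, at an adjusted p under 0.05 (log2 fold change 0.52, adjusted p = 0.0171 from edgeR), with DESeq2 (0.53, adjusted p = 0.00127), and without LP mouse 13, so that it ranged from 0 to 1 with each mouse left out. In the other 6 comparisons 0 chaperones were called under every alternative. Of 2140 single log2 fold changes set against the main fit, 2134 kept their direction and side of the threshold. A change of sign was counted only for a value beyond its standard error. The 2140 include the other thresholds, which reuse the main fit and cannot change a sign. Apart from Hsph1 for the average effect of fat, every adjusted p in the main fit was 0.113 or more (edgeR). Most values were thus far from the threshold, and keeping their side of it says little. The sign turned for Hsph1 in LP against NP without LP mouse 13 (from −0.02 to 0.14, with a range of −0.081 to 0.141 over mice left out), for Hspa1a in HF + LP against LP without HF + LP mouse 3 (from 0.13 to −0.41, range −0.41 to 0.32), and for the interaction of Hspb1 with the replicate block (from 0.05 to −0.22). For Hspb1 the interaction was −0.14 without LP mouse 13, a mouse that the block also takes out of the comparisons. The cause was not tested. The count of chaperones higher for the average effect of fat at an unadjusted p under 0.05 was 6 to 7 with each mouse left out. For LP against NP it was 1, with a range of 0 to 2 and 0 with the atrial covariate, for HF + LP against HF it was 1 with a range of 0 to 1, for HF against NP it was 3, with a range of 2 to 4 and 5 when only the groups compared were fitted, and for the interaction it was 0, with a range of 0 to 2 and 1 by DESeq2. For HF + LP against LP it was 3 with a range of 3 to 4, and for the average effect of protein 0 with a range of 0 to 1. DESeq2 called 163 of all genes against 37 in HF against NP, 84 against 14 in HF + LP against LP, and 398 against 139 for the average effect of fat, and 16, 4, 1, and 1 against 0 in HF + LP against HF, LP against NP, the average effect of protein, and the interaction. With each mouse left out, edgeR called 20 to 69, 1 to 16, and 79 to 197 genes in the first 3 of these.

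Same-numbered mice of different diets did not deviate together in every pair, with r of their deviations from −0.56 to 0.48 over 16 pairs. Differently numbered mice were not compared in this way, so whether the numbers pair the mice was not settled. The replicate block gives each animal number its own term. No other mouse carries the number of NP mice 6 and 8 or of LP mice 13, 15, and 20. The block therefore takes these mice out of the diet comparisons, and its results cannot be told apart from that loss. With the replicate block, 4 chaperones were higher for the average effect of fat, Hsph1 had 0.53 (adjusted p = 0.0788 from edgeR), and Hspd1 and Hspe1 had 0.08 and 0.12 (adjusted p = 0.839 and 0.695). The count in HF + LP against LP fell from 3 to 1, and that for the average effect of protein went from 0 to 2. Over all genes, the replicate block left 2, 0, and 13 called in HF against NP, HF + LP against LP, and the average effect of fat. At the low counts of Hspa1a and Hspa1b, log2 standard errors in HF against NP were 0.33 and 0.39, larger than the differences of Hspd1 and Hspe1 in the same comparison.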
